A study of Schizosaccharomyces pombe with 384 samples.

Results

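The transcriptome of the tfg3 knockout strain of fission yeast (Schizosaccharomyces pombe) is described here from the 4 libraries titled SPAC22H12.02, the systematic ID of tfg3, out of 384 libraries in the series. They were compared with the 8 wild-type libraries, and then with the 4 libraries of the arp5 knockout strain and with all 372 libraries of the other 93 deletion strains. All strains were haploid members of the Bioneer deletion collection or wild-type cells grown beside them in the wells of deep-well plates in YES, a rich medium with glucose, and no strain received a further treatment. In the collection each knockout strain carries 1 deleted gene, and the labels give no other allele for tfg3Δ, arp5Δ or wild type. RNA was read from its 3′ end (3′ mRNA-seq), so each read counted once for a transcript and levels are given as CPM, the counts of a transcript scaled to a fixed number of reads per library. Levels of different genes are compared here only as CPM of 3′ ends, a scale on which transcript length does not enter. The 4 replicate numbers of tfg3Δ came from well G1 of 4 plates, and the wild-type libraries from wells A1 and A2. The libraries of a knockout strain are biological replicates according to the study. The sources used here do not say so of the wild-type libraries, whose spread may in part be technical.

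Tfg3 is a small YEATS-domain protein, a module that reads acylated histone lysines, and RefSeq lists it as a subunit of TFIID, TFIIF, Ino80, SWI/SNF and NuA4. TFIID and TFIIF are general factors that position and start RNA polymerase II at promoters, whereas SWI/SNF and Ino80 move nucleosomes and NuA4 acetylates histones. In fission yeast, growth in rich medium keeps cells in the mitotic cycle. Nutrient loss turns on the transcription factor Ste11, which activates the pheromone, mating and early meiotic genes by binding a short element called the TR box, and the pheromone signal then runs through a G protein and a MAP kinase cascade that ends in Spk1.

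Since genes of this mating pathway were among the largest increases described below, the TR-box stretches of 5 of them are shown first. The sequences were read from the RefSeq assembly ASM294v3 within the 250 bases before the annotated gene start, on the strand of the gene, and the capitals mark TTCTTTGTT or its reverse complement AACAAAGAA. Each name is followed by how far the first base of the match lies before the gene start.
spk1, 187 bases before its start (chrI:3001686-3001715, minus strand): agttagtgtaAACAAAGAAtatgcgcgacg
spk1, matches 62 and 50 bases before its start (chrI:3001556-3001585, minus strand): acattAACAAAGAAactTTCTTTGTTattg
ste4, 54 bases before its start (chrI:1296578-1296607, minus strand): tgagtatgctTTCTTTGTTataaaagtagt
mei2, 160 bases before its start (chrI:4515166-4515195, minus strand): gccgaccgatTTCTTTGTTcctattttaaa
mei2, 138 bases before its start (chrI:4515144-4515173, minus strand): attttaaagtTTCTTTGTTttacaaaccct
ste11, 127 bases before its start (chrII:3983239-3983268, plus strand): aaagttgaatTTCTTTGTTtgattttcatt
mfm1, 79 bases before its start (chrI:4916926-4916955, plus strand): gggtccgaccAACAAAGAAgtctcagtttt
The 2 sites of the second spk1 stretch lie on opposite strands, 3 bases apart. In the deposited gene models (ASM294v2) spk1 starts further upstream, at 3001687, and ste4 at 1296634. If both assemblies number these bases alike, the second spk1 stretch and the ste4 stretch lie inside the counted genes. The element was chosen for this search after the expression values had been seen. It was present in the window of 83 of 5112 protein-coding genes (1.62%), and a match is a description of the letters only.

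The 4 libraries labelled tfg3Δ held 1730439 to 2218920 reads on genes and the 8 wild-type libraries 1578511 to 2126622, so that 3 reads corresponded to 1.46 to 1.83 CPM and to 1.38 to 2.27 CPM. Around its group mean, a tfg3Δ library deviated by a median of 0.232 to 0.310 log2 units per transcript, against 0.184 to 0.249 for wild type. Among the wild-type libraries, 6 of 8 are described as a knockout strain in 1 label field, while their title and strain field say wild type, and they were used as wild type. Pairs of wild-type libraries differed by a chi-square per degree of freedom of 1.42 to 13.9 and pairs of tfg3Δ libraries by 6.34 to 15.5, all above sampling noise, and every library was counted once. The closest wild-type pairs were wells A1 and A2 of replicate 4 (1.42) and of replicate 3 (1.91), so the 8 are not fully independent. The main fit and the permutation test below count them as 8 separate libraries, without a plate term. Against the 4 wild-type libraries of well A1 alone 213 transcripts passed the thresholds given below, and against those of well A2 alone 157.

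The level of tfg3 itself was not lower in the libraries labelled tfg3Δ. It was 102, 120.1, 90.6 and 91.9 CPM in replicates 1 to 4, against 65.8 to 94.6 CPM (median 83.9) in wild type. The ranges overlapped, and the mean was 0.30 log2 units higher in tfg3Δ (exact two-sided permutation test over all 495 assignments of 4 and 8 libraries, p = 0.0303, where the smallest possible p is 0.00202). With limma the gene was not called (log2 fold change 0.30, SE 0.14, Benjamini-Hochberg adjusted p = 0.226). In the deposited gene model, tfg3 lies on chromosome I (893996 to 896547, plus strand, ASM294v2). By mean level of tfg3, tfg3Δ ranked 91 of the 94 deletion strains (101 CPM, against a median of 87.7 and a maximum of 107 CPM in the others). RefSeq places 146 bases of 3′ UTR after the coding region. Where the tfg3 reads lay and which part the deletion removed was not tested, so the level does not check the label. The gene also overlaps mug35 on the other strand, which read 32.3, 39.5, 27.3 and 11.9 CPM in tfg3Δ and 13.1 to 35.8 CPM (median 17.1) in wild type. For these reasons the direction of every result below refers to libraries labelled tfg3Δ. None of the 10 nearest genes of the table was called, and their log2 fold changes ran from -0.33 (fsc1) to 0.45 (mug35).

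A transcript was called when its log2 fold change was at least 0.6 in size and its limma p at most 0.005, the thresholds of the study. Of 5461 transcripts tested, 264 (4.83%) were called in tfg3Δ against wild type, 137 higher (2.51%) and 127 lower (2.33%). At the same fold change and an adjusted p below 0.05 (limma, Benjamini-Hochberg over all tested), 183 (3.35%) remained, 97 higher (1.78%) and 86 lower (1.57%). The groups did not overlap for 148 of the 264, and for 250 of all transcripts tested (4.58%). When CPM were recomputed from the reads on genes, the called transcripts split into 150 higher and 87 lower, with a shift of 0.06 log2 units in the median of all transcripts. A fit with the plate as a replicate block, in the 10 libraries of known plate, called 328 transcripts (299 at the adjusted p), and the fit of those libraries that ignored the plate called 245 (154). Called changes reached 3.63 log2 units upwards (the non-coding omt3) and -2.35 downwards (gdt1), and 72 transcripts rose and 50 fell by at least 1 log2 unit. Among the 94 deletion strains compared with wild type in this way, tfg3Δ ranked 27th from the highest number of calls (median strain 121.5, range 6 to 1190), and arp5Δ had 54. The higher protein-coding genes had a median wild-type level of 12.7 CPM and the lower ones 36.0 CPM, beside 34.3 CPM for all protein-coding genes tested. Of the called transcripts, 73.5% overlapped another gene of the table, beside 69.3% of those tested, and since the sources used here do not state whether strand was used in counting, reads of overlapping genes cannot be told apart with certainty.

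**Figure D1:**
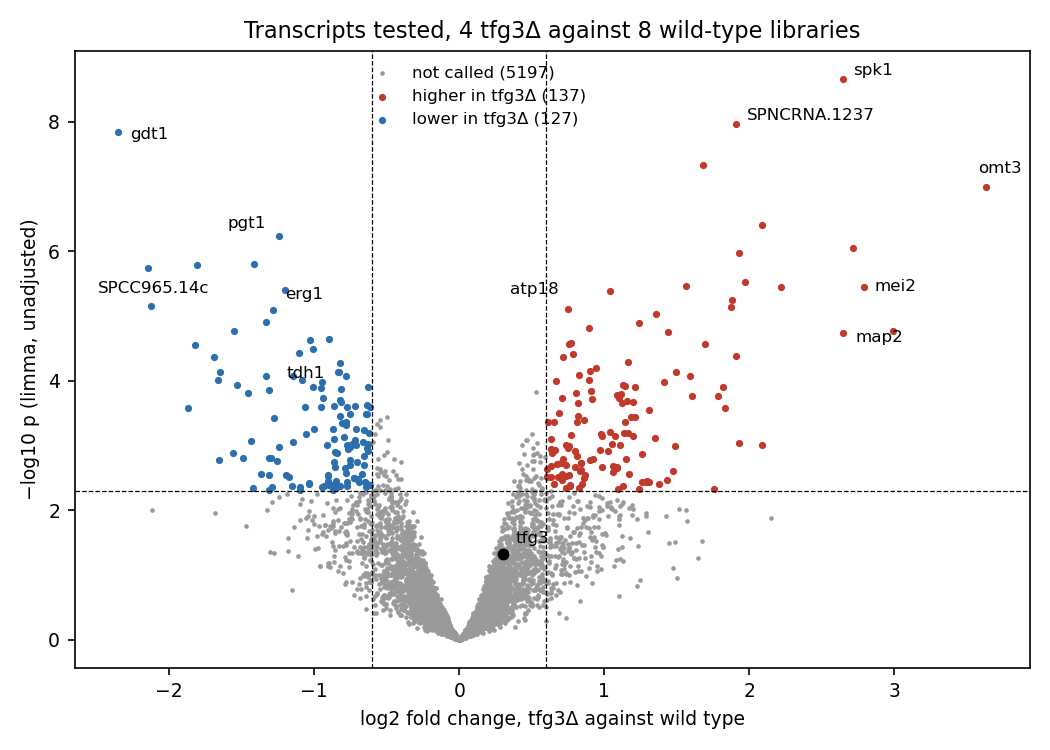
Log2 fold change of tfg3Δ against wild type (horizontal axis) and −log10 of the unadjusted limma p (vertical axis) for the 5461 transcripts tested, with dashed lines at the thresholds. The 137 higher transcripts (red) reach further from 0 than the 127 lower ones (blue), up to omt3 at 3.63, and tfg3 (black) lies below the p threshold line.

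Genes of mating and pheromone signalling rose in tfg3Δ. Of 20 listed genes 18 were tested, 9 were higher (50%, beside 2.51% of all transcripts tested) and none was lower, and 6 passed the adjusted p. Their median log2 fold change was 1.17, beside 0.00 over all transcripts tested, and 0.69 when low values were kept and 1 CPM was added to each. Removal of any 1 library left spk1, map1, ste4, map2 and ste11 called.

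The kinases and adaptors of the pathway came first. Expression of spk1, the MAP kinase of the pheromone cascade, was 81.2, 57.8, 65.7 and 55.7 CPM in the 4 tfg3Δ libraries and 7.06 to 13.8 CPM (median 10.3) in the 8 wild-type libraries. The groups lay far apart, with a mean of 65.1 ± 11.6 CPM (SD, n = 4) against 10.5 ± 2.45 CPM (SD, n = 8), 6.17 times as high (log2 fold change 2.64, SE 0.19, limma with Benjamini-Hochberg adjusted p = 1.19e-05). This gene had the smallest p of all transcripts tested, and it overlaps SPAC31G5.08 on the other strand. For ste4, an adaptor of the MAP kinase cascade, the values were 16.5, 16.6, 20.9 and 17.8 CPM against 2.89 to 9.41 CPM (median 4.14). Its groups did not overlap either (log2 fold change 1.97, SE 0.26, limma adjusted p = 0.00123). Upstream of them, gpa1, the G-protein alpha subunit coupled to the pheromone receptors, had 11.3 to 29.9 CPM in tfg3Δ and 3.73 to 12.6 CPM in wild type. Those ranges overlapped, and its adjusted p was 0.0685 (limma, log2 fold change 1.29).

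Transcription factors of the pathway were higher as well. The level of ste11, the regulator of sexual differentiation, was 37.2, 27.5, 16.6 and 14.6 CPM in tfg3Δ and 3.68 to 11.072 CPM (median 8.02) in wild type, with no overlap (log2 fold change 1.61, SE 0.31, limma adjusted p = 0.0118). Replicates 1 and 2 were the higher ones. For map1, a MADS-box factor needed for P-cell genes, 9.15, 8.01, 11.7 and 10.8 CPM were measured against 1.24 to 3.59 CPM (median 2.32). This was 4.12 times the wild-type mean and without overlap (log2 fold change 2.084, SE 0.23, limma adjusted p = 0.000357). The RNA-binding protein gene mei2, required for entry into meiosis, had 20.7, 10.3, 10.7 and 16.2 CPM in tfg3Δ and only 0.577 to 4.23 CPM (median 1.52) in wild type. All 4 libraries were above all 8 (log2 fold change 2.79, SE 0.34, limma adjusted p = 0.00123), and mei2 was close to the 3-read level in wild type, so that without any 1 of 6 wild-type libraries it was not tested.

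Both kinds of pheromone gene were represented. The P-factor gene map2 had 28.7, 6.29, 15.1 and 34.6 CPM in tfg3Δ, spread over a wider range than the other members, and 1.51 to 4.62 CPM (median 3.05) in wild type. Replicate 2 was the lowest of the 4 and still above the wild-type maximum (log2 fold change 2.64, SE 0.41, limma adjusted p = 0.00327). Of the M-factor genes, mfm1 (5.84 to 17.1 CPM against 1.84 to 8.33 CPM) and mfm3 (4.38 to 12 CPM against 1.41 to 6.35 CPM) passed the unadjusted threshold with overlapping groups, and mfm2 did not (log2 fold change 0.09). With the replicate block mfm1 lost its call. Together mam2, map2, map4 and sxa1, of which 2 were tested, summed to 153 to 193 CPM in tfg3Δ and 123 to 219 CPM in wild type. For map3, mfm1, mfm2, mfm3, mam1, mam3 and sxa2 the sums were 53.6 to 83.0 CPM against 45.1 to 57.7 CPM. These sets place the receptor genes mam2 and map3 with the opposite cell type, so neither sum measures P or M cells. None of these genes was at 0 in all 12 libraries. The part of cell type in the result was not tested. Members that were not called included the pheromone transporter genes ste6 (log2 fold change 1.04) and mam1 (-0.26) and the protease genes sxa1 (-0.17) and sxa2 (-0.05).

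TTCTTTGTT, on either strand, was found before 6 of the 9 called mating genes and before 2 of the 11 other listed ones. Over all protein-coding genes called higher it occurred in 7 of 72 (9.72%), and over those called lower in 1 of 98 (1.02%), beside 1.53% of all tested. The 6 mating genes with a match are among these 7, so the share of 9.72% largely repeats the mating count. TATAAA, the TATA box, searched on both strands like the motifs that follow, lay before 40.3% of the higher, 42.9% of the lower and 44.4% of all tested genes. The core of the Atf1 site, TGACGT, was found before 14 of 98 lower genes (14.3%), 3 of 72 higher genes (4.17%) and 5.41% of all tested. For GAANNTTC, the core of the heat shock element, the shares were 9.72%, 13.3% and 9.31%, for CCAAT they were 40.3%, 44.9% and 35.3%, and for CAGTCACA, the HomolD box of ribosomal protein genes, 2.78%, 1.02% and 2.85%. No motif contains another.

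**Figure D2:**
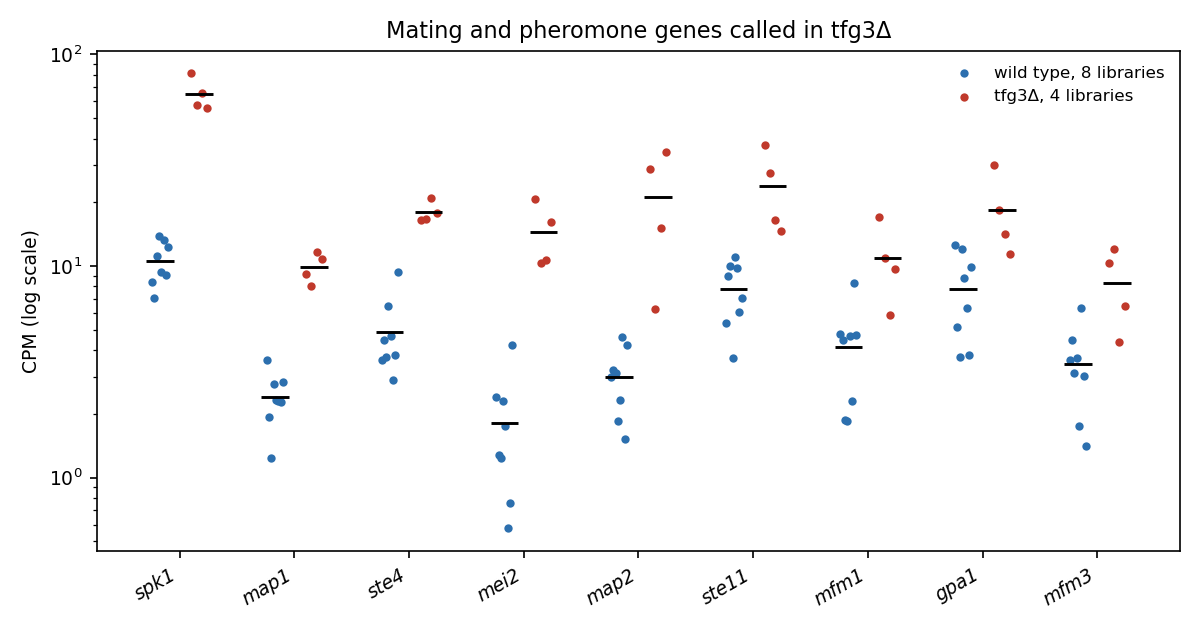
CPM (log scale) of the 9 mating and pheromone genes called in tfg3Δ, with 1 point per library (red, 4 tfg3Δ libraries; blue, 8 wild-type libraries) and a bar at the group mean. The groups do not overlap for spk1, map1, ste4, mei2, map2 and ste11, and spk1 is the highest of them at 65.1 CPM on average.

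Further protein-coding genes rose outside the mating list. SPBC1773.12, a predicted transcription factor, read 45.2, 44, 36.5 and 31.9 CPM in tfg3Δ and 6.58 to 16.7 CPM (median 9.81) in wild type. It was 3.68 times the wild-type mean, without overlap (log2 fold change 1.93, SE 0.23, limma adjusted p = 0.000645). For gst2, a glutathione S-transferase of the stress response, 377, 284.8, 192 and 276 CPM stood against 74 to 144 CPM (median 88.4). The lowest tfg3Δ library, replicate 3, was still above every wild-type library (log2 fold change 1.56, SE 0.21, limma adjusted p = 0.00123). The uncharacterised genes SPACUNK4.20 and SPAC23H4.05c were low in wild type, at 0.0 to 2.57 CPM and 0.757 to 4.66 CPM, and reached 6.29 to 9.15 CPM and 8.58 to 13.4 CPM in tfg3Δ. Their log2 fold changes were 2.22 and 1.88 (limma adjusted p = 0.00123 and 0.00162), and without any 1 of 6 wild-type libraries SPACUNK4.20 was not tested. meu10, which encodes a GPI-anchored protein known from sporulation, had 22, 20.02, 24.3 and 17.3 CPM against 5.6 to 11.7 CPM (median 8.08) (log2 fold change 1.35, limma adjusted p = 0.00215). It shares its locus with SPNCRNA.1237, described below.

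Some subunits of the mitochondrial respiratory chain and ATP synthase, the machinery of oxidative phosphorylation, rose in tfg3Δ by small amounts. The list of 31 subunit genes was drawn up from the annotated products after the values had been seen. Of the 31, 7 were higher, all at the adjusted p (22.6%, beside 2.51% of all tested), none was lower and 29 had a positive log2 fold change, with a median of 0.50. The exceptions were rcf2 (-0.57) and rcf1 (-0.45), which encode assembly factors of respiratory supercomplexes. For atp18, subunit J of the membrane part of the ATP synthase, the 4 libraries read 256, 237, 242 and 227 CPM and wild type 129 to 164 CPM (median 143). The groups were tight and far from overlap (log2 fold change 0.75, SE 0.11, limma adjusted p = 0.00189). Its partner atp5, the delta subunit, had 305, 243, 240.0 and 224 CPM against 132 to 174 CPM (median 143) (log2 fold change 0.77, SE 0.12, limma adjusted p = 0.00409). Replicate 1 was the highest here, as it was for atp17, subunit F, with 539, 447, 451 and 373 CPM against 244 to 302 CPM (median 260.3) (log2 fold change 0.75, limma adjusted p = 0.00409). In cytochrome c oxidase, cox4 had 510.2, 382, 430.4 and 451 CPM against 216 to 299.7 CPM (median 258) (log2 fold change 0.78, SE 0.13, limma adjusted p = 0.00533). It overlaps the mating gene sxa2 on the other strand (log2 fold change -0.05). The other 3 called members were cox7 (log2 fold change 0.66) and the ubiquinol-cytochrome c reductase genes qcr9 (0.67) and qcr10 (0.69), each with non-overlapping groups, and all 3 lost the call without replicate 1 of tfg3Δ. Transcripts of the mitochondrial genome were not called (0 of 11, median log2 fold change 0.43), nor was any of 141 cytoplasmic ribosomal protein genes (median 0.03).

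Ranked by mean level over the 94 deletion strains, tfg3Δ was at 91 or above for all 7 called subunit genes, and at 94, the highest, for atp18, atp5, atp17, qcr9 and cox7. Of all 31 subunits, 21 ranked at 90 or above in tfg3Δ and 7 at 94. Against the libraries of the other strains, without wild type, atp18 (log2 fold change 0.61), atp17 (0.62), cox4 (0.66) and atp5 (0.62) were called, with limma adjusted p between 0.0028 and 0.0305.

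**Figure D3:**
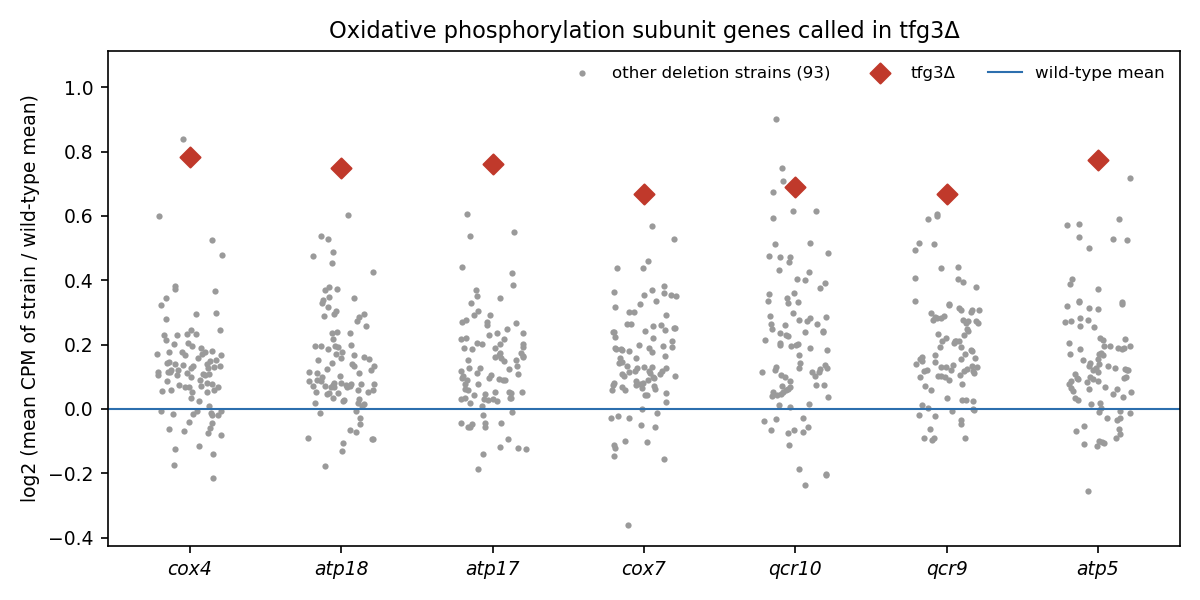
Mean level of each deletion strain relative to wild type (log2 of the ratio of mean CPM) for the 7 oxidative phosphorylation subunit genes called in tfg3Δ (red diamonds) and in the other 93 deletion strains (grey points); the blue line is the wild-type mean. Every red diamond is among the 4 highest points of its gene.

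The largest decreases in tfg3Δ were those of a membrane protein gene and a metabolic gene. The first was gdt1, which encodes a membrane protein of a family of predicted cation transporters: 11.6, 18.3, 23.4 and 11.3 CPM in tfg3Δ and 59.8 to 93.8 CPM (median 79.1) in wild type. The 4 libraries lay well below the 8, at a fold of means of 0.204 (log2 fold change -2.35, SE 0.20, limma adjusted p = 2.66e-05). SPCC965.14c, a predicted cytosine deaminase, read 6.1, 16, 19.5 and 19.5 CPM against 47.7 to 77 CPM (median 61). Replicate 1 was the lowest library and no library reached the wild-type minimum (log2 fold change -2.15, SE 0.27, limma adjusted p = 0.000831). Among transporters of the plasma membrane, pgt1, for glutathione, had 20.1, 25.2, 17.5 and 25.9 CPM against 45 to 62.9 CPM (median 51.4) (log2 fold change -1.24, SE 0.14, limma adjusted p = 0.000459). The biotin transporter gene vht1 read 11, 9.72, 7.79 and 8.65 CPM against 18.9 to 60.6 CPM (median 29.1) (log2 fold change -1.82, SE 0.29, limma adjusted p = 0.00409). Wild type varied more for vht1 than for pgt1, yet neither gene overlapped between groups.

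Most of the other named decreases were of enzymes. erg1, squalene monooxygenase of ergosterol synthesis, fell to 369, 402, 340.3 and 274 CPM from 608 to 1065 CPM (median 883) (log2 fold change -1.28, SE 0.19, limma adjusted p = 0.00189). It was the 1 gene called of 18 listed ergosterol genes, whose median was -0.06, while with the replicate block 3 of them were called lower. aes1, of the phenazine biosynthesis protein family, had 12.2, 14.3, 13.1 and 7.57 CPM against 23.1 to 35.9 CPM (median 31.4) (log2 fold change -1.42, limma adjusted p = 0.000809). The aldo/keto reductase gene SPBC8E4.04 ranged over 30.5 to 53 CPM in tfg3Δ and 78.3 to 118 CPM in wild type (log2 fold change -1.20, limma adjusted p = 0.00125). Methyltransferase gene SPAC1B3.06c read 12.2, 11.4, 18.99 and 12.4 CPM against 22.5 to 35.3 CPM (median 27.4), with replicate 3 nearest to wild type (log2 fold change -1.01, limma adjusted p = 0.00473). Of the others, gpi7, which modifies GPI anchors, had 33.1 to 51.3 CPM against 57.7 to 80.6 CPM, and pex7, an import receptor of peroxisomes, 146 to 237 CPM against 269 to 415 CPM. Their log2 fold changes were -0.90 and -1.03, with limma adjusted p of 0.00383 and 0.00384.

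**Figure D4:**
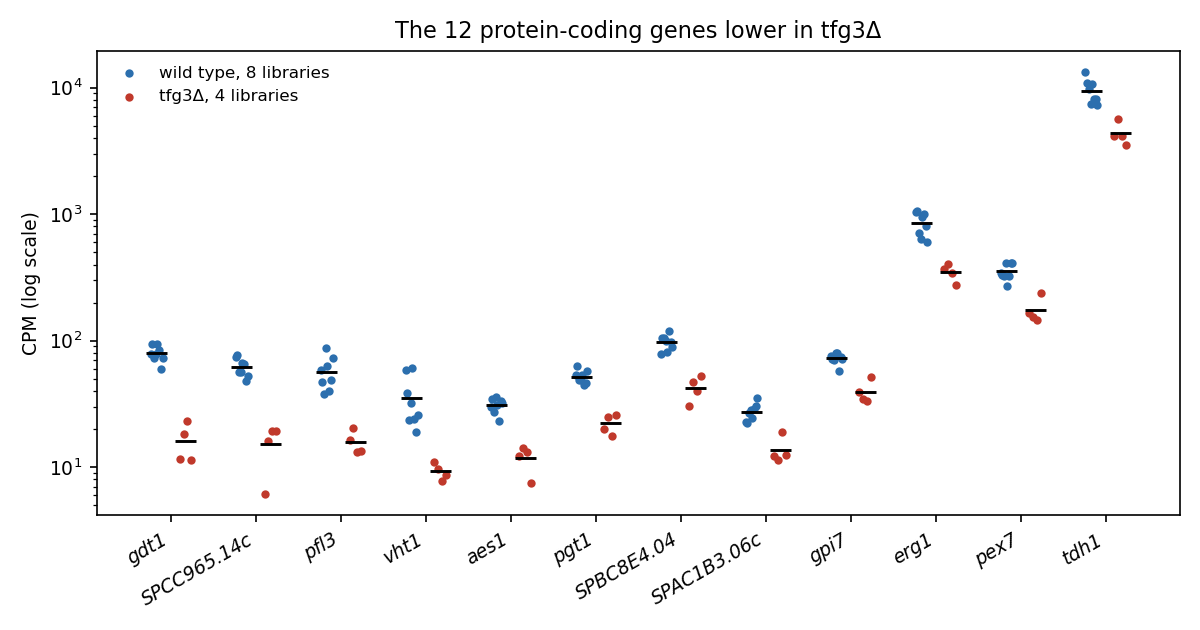
CPM (log scale) of the 12 protein-coding genes named as lower in tfg3Δ, with 1 point per library (red, 4 tfg3Δ libraries; blue, 8 wild-type libraries) and a bar at the group mean. In each gene all red points lie below all blue points, over levels from about 10 CPM (vht1 at 9.29 in tfg3Δ) to far higher ones (tdh1 at 4384).

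Some glycolytic genes were lower against wild type. Of 17 listed genes of glycolysis and fermentation, 4 were lower, all at the adjusted p (23.5%, beside 2.33% of all tested), none was higher, and the median log2 fold change was -0.41. The glyceraldehyde-3-phosphate dehydrogenase gene tdh1 read 4123, 5679, 4185 and 3547 CPM in tfg3Δ and 7263 to 13339.8 CPM (median 8971) in wild type. This was 0.463 of the wild-type mean without overlap (log2 fold change -1.10, SE 0.18, limma adjusted p = 0.00532). Enolase eno101 had 6746, 5858, 5949.8 and 6207 CPM against 7935 to 13116 CPM (median 11033) (log2 fold change -0.77, limma adjusted p = 0.0146), and phosphofructokinase pfk1 1134, 878, 853 and 745 CPM against 1301 to 2018 CPM (median 1554) (log2 fold change -0.82, limma adjusted p = 0.0105). For the alcohol dehydrogenase adh1 the 4 libraries were within 5014 to 5194 CPM, below the 6044 to 9757 CPM of wild type (log2 fold change -0.62, limma adjusted p = 0.0273). Members that were not called ran from -0.62 (adh4) to 1.4996 (pdc201, a second pyruvate decarboxylase). Compared with the other deletion strains instead of wild type, none of the 17 was called and the median was 0.09. There, the values were -0.69 for tdh1, 0.02 for eno101, -0.37 for pfk1 and -0.15 for adh1, and eno101 ranked 34 of 94 strains by level.

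Flocculins, the cell-surface glycoproteins by which yeast cells adhere to each other, were lower in part. Of 11 flocculin and regulator genes tested 3 were lower (27.3%, beside 2.33% of all tested) and none higher, with a median log2 fold change of -0.48. pfl3 read 16.5, 20.6, 13.1 and 13.5 CPM in tfg3Δ and 37.9 to 88 CPM (median 53.9) in wild type, without overlap (log2 fold change -1.81, SE 0.23, limma adjusted p = 0.000809). It overlaps 2 non-coding genes on the other strand. The low-expressed pfl2 (1.95 to 3.66 CPM against 4.35 to 8.94 CPM) fell by 1.06 on the log2 scale (limma adjusted p = 0.0145), and pfl7 by 1.19 with overlapping groups and an adjusted p of 0.0618 (limma). With the replicate block pfl7 was no longer called.

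The stress and nutrient lists moved in both directions. Of 20 genes of the core environmental stress response, 4 were higher (20%, beside 2.51% of all tested) and 3 lower (15%, beside 2.33%). Besides gst2, the calcium pump gene cta3 had 11, 8.01, 10.7 and 5.4 CPM against 0.941 to 4.49 CPM (median 2.16) (log2 fold change 1.82, limma adjusted p = 0.00986), without overlap. The pyridoxal reductase plr1 (277 to 498 CPM against 164 to 337 CPM, log2 fold change 0.98) and the glutathione peroxidase gpx1 (127 to 239 CPM against 81.6 to 165 CPM, log2 fold change 0.74) overlapped between groups, with limma adjusted p of 0.0275 and 0.0631. The thioredoxin gene trx2 was lower (18.9 to 24.6 CPM against 26.6 to 41.4 CPM, log2 fold change -0.64), as were isp3 (-1.004), which is known from spore walls and lost its call with the replicate block, and gst1 (-0.86), which read 0.61 to 1.72 CPM in tfg3Δ and 0 to 3.46 CPM in wild type and also lost its call with the block. Of 20 heat-shock and chaperone genes only ssa2, an Hsp70, was called (log2 fold change -0.79, limma adjusted p = 0.0291), and it was lower. Inducible members such as hsp9 (log2 fold change 1.23), ssa1 (1.1104) and hsp104 (1.00) did not pass the threshold in this fit. With the replicate block, 2 heat-shock and chaperone genes were called higher and 1 lower.

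Among iron genes, the ferric reductase frp1 was higher, at 12.8, 10.3, 11.2 and 8.65 CPM against 2.91 to 6.93 CPM (median 4.46) (log2 fold change 1.21, SE 0.26, limma adjusted p = 0.0184), without overlap. The siderophore transporter str1 had 53.1, 48, 81.8 and 115 CPM against 15.7 to 58.8 CPM (median 23.2), with overlapping groups (log2 fold change 1.38, limma adjusted p = 0.073), and with the replicate block its adjusted p was 0.00444. The vacuolar transporter abc3 was lower (-0.91, limma adjusted p = 0.0618). A further siderophore transporter, str3, was too low in wild type to be tested and was found after its values had been seen: it read 7.93, 2.29, 5.36 and 9.73 CPM in tfg3Δ and at most 1.84 CPM in wild type, with a wild-type median of 0.

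Single calls were made in other lists. The acid phosphatase pho1, the main secreted phosphatase, was lower at 769, 719, 501 and 922 CPM against 1159 to 2094 CPM (median 1666) (log2 fold change -1.14, limma adjusted p = 0.00828), as 1 of 5 phosphate genes. The amino acid transporter cat1 (-0.76), the septum glucanase eng1 (-1.37) and the mitotic inhibitor kinase mik1 (-0.88) were lower with limma adjusted p of 0.0506, 0.0618 and 0.074, and the cell-wall glucanase exg1 was higher (813 to 1044 CPM against 380.0 to 747 CPM, log2 fold change 0.72, limma adjusted p = 0.0444). With the block mik1 was not called. Of the 12 fits that each left out 1 library, the calls held in 3 for mik1, in 4 for str1, in 5 for gpa1, gpx1 and eng1, in 6 for mfm3, in 7 for pfl7, in 8 for abc3, in 9 for mfm1 and gst1, and in 10 for trx2, cat1, exg1 and adh1, while gst1 and pfl7 were not tested in 3 of them. Of 52 subtelomeric genes tested out of 185, 2 were higher (3.85%, beside 2.51% of all tested) and 7 lower (13.5%, beside 2.33%), with a median of -0.27.

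Listed genes of complexes with Tfg3 as a subunit, and of the Mst2 histone acetyltransferase complex, did not move past the thresholds, while those of NuA4 were not listed. None was called of 3 TFIIF genes (tfg1 at a log2 fold change of 0.20 and tfg2 at -0.05), 14 TFIID, 11 SWI/SNF, 13 INO80 and 6 Mst2-complex genes. The other YEATS gene, yaf9, was at 0.00. No call was made either among 16 genes of RNA polymerase II and its general factors (range -0.30 to 0.33), 11 histone genes, 16 genes of purine and pyrimidine synthesis (median -0.31), 6 thiamine genes, 8 copper and zinc genes, 8 hexose transporter and glucose-repressed genes or 5 meiotic transcripts. With the replicate block, 1 histone gene, 2 purine and pyrimidine genes and 2 hexose transporter and glucose-repressed genes were called lower.

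**Figure D5:**
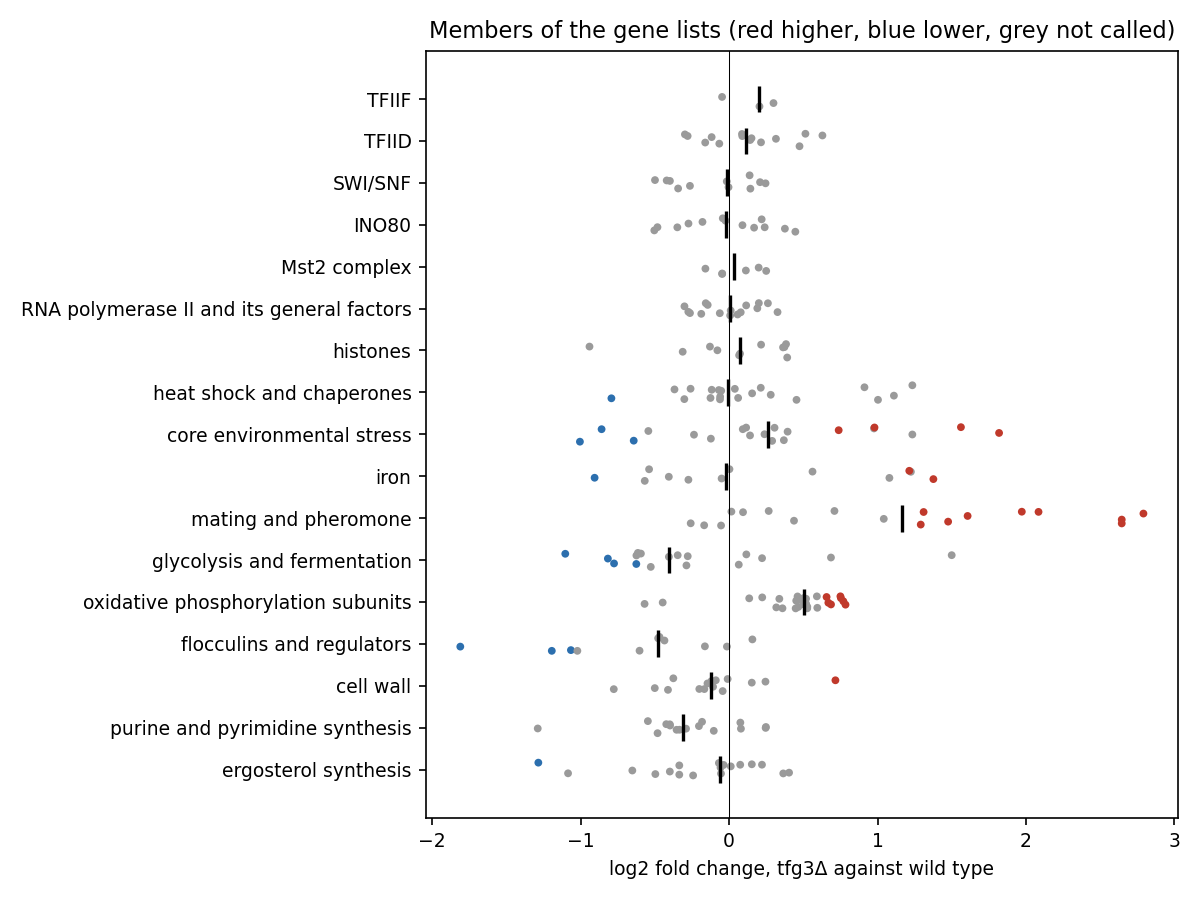
Log2 fold change of tfg3Δ against wild type for the tested members of 17 gene lists, with 1 point per gene (red, called higher; blue, called lower; grey, not called) and a bar at the median of each list. The mating list lies furthest to the right with a median of 1.17, the oxidative phosphorylation subunits cluster around 0.50, and the complexes at the top lie around 0 without a call.

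Against wild type, more lncRNAs were called higher than lower in tfg3Δ. Of 699 lncRNAs tested, 60 were higher and 29 lower (median 0.20), against 72 and 98 of 4695 protein-coding genes (median -0.02). Antisense transcripts, of which 363 were tested, were higher in 22 cases (6.06%, beside 2.51% of all tested) and lower in 18 (4.96%, beside 2.33%). Over all transcripts not annotated as protein-coding, 65 of 766 were higher and 29 lower against wild type. In the comparisons described below, which share the tfg3Δ libraries, they were 10 and 10 of 784 against the other deletion strains (median 0.03, beside 0.675% higher and 1.35% lower of all tested) and 26 and 30 of 832 against arp5Δ (median -0.11, beside 1.03% and 1.33%). Antisense transcripts were 4 higher and 8 lower of 372 against the other strains, and 3 higher and 20 lower of 408 against arp5Δ. The largest increase of all was that of omt3, a lncRNA annotated as part of meiosis-specific Smp foci, at 65.9, 26.3, 57.5 and 47 CPM against 0.0 to 6.114 CPM (median 3.71) (log2 fold change 3.63, SE 0.34, limma adjusted p = 0.000112). It lies on chromosome I at 4516070 to 4517070, next to mei2 at 4510983 to 4515015 (ASM294v2). SPNCRNA.1237 read 51.3, 49.8, 57.5 and 46.5 CPM against 10.3 to 17.3 CPM (median 13.7), with groups far apart (log2 fold change 1.91, SE 0.16, limma adjusted p = 2.66e-05). It lies within meu10 on the other strand, and meu10 also rose. For SPNCRNA.1452, 6.48 to 8.58 CPM were read against 1.73 to 3.03 CPM (log2 fold change 1.68), and for prl51, a poly(A)-bearing RNA, 7.32 to 13.2 CPM against 0.757 to 3.109 CPM (log2 fold change 2.71). Their limma adjusted p were 6.3e-05 and 0.00062, and without any 1 of 6 wild-type libraries prl51 was not tested.

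The named non-coding decreases were all antisense transcripts. rad2-antisense-1 was at 0.61, 1.72, 1.46 and 1.08 CPM in tfg3Δ, at or under the 3-read level, and at 4.19 to 13.1 CPM (median 5.71) in wild type (log2 fold change -2.12, SE 0.29, limma adjusted p = 0.00189). Without tfg3Δ replicate 2, 3 or 4 it was not tested. pku70-antisense-1 had 2.44, 10.3, 3.9 and 4.86 CPM against 10.5 to 19.1 CPM (median 15.2) (log2 fold change -1.65, limma adjusted p = 0.008), with replicate 2 close below the wild-type minimum. gnr1-antisense-1 ranged over 4.88 to 9.15 CPM against 13.1 to 22.7 CPM (log2 fold change -1.33, limma adjusted p = 0.00271). At the isp3 locus the antisense transcript (1.62 to 4.58 CPM against 5.77 to 10.13 CPM, log2 fold change -1.55) and isp3 itself (15.6 to 34 CPM against 34.1 to 72.8 CPM) were both lower.

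Arp5 is a subunit of INO80, one of the complexes in which Tfg3 is found, and the arp5 knockout strain allowed a comparison that uses no wild-type library. Of 5549 transcripts tested, 131 (2.36%) were called between tfg3Δ and arp5Δ, 57 higher in tfg3Δ (1.03%) and 74 lower (1.33%). Only 16 (0.288%) passed an adjusted p below 0.05 (limma, Benjamini-Hochberg), 5 higher (0.0901%) and 11 lower (0.198%), and 674 had an unadjusted p below 0.05. With the plate as a replicate block, 184 were called but 1 at the adjusted p. Of the mating list, 5 genes were called higher in tfg3Δ than in arp5Δ and none lower, and 1 of them, spk1, passed the adjusted p. spk1 was at 8.01 to 18.7 CPM in arp5Δ, below all 4 tfg3Δ libraries (log2 fold change 2.45, limma adjusted p = 0.0179). The other 4 transcripts higher at the adjusted p were outside the mating list. They were SPBC1773.12 (8 to 14.8 CPM in arp5Δ, log2 fold change 1.83), frp1 (1.71), SPNCRNA.1237 (1.599) and prl51 (2.079). Among the lower ones, gdt1 was at 50.0 to 81.1 CPM in arp5Δ (log2 fold change -2.08), pfl3 at 47.4 to 93.1 CPM (-1.91) and SPCC965.14c at 60.8 to 116 CPM (-2.49), with limma adjusted p of 0.0227, 0.0246 and 0.0425. By contrast gst2 varied from 98.3 to 648 CPM in arp5Δ and did not differ past the thresholds (log2 fold change 0.52, limma adjusted p = 0.74). For the oxidative phosphorylation subunits, 6 of 31 were higher in tfg3Δ than in arp5Δ, with a median of 0.50, and none of them passed the adjusted p.

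A last comparison set tfg3Δ against the 372 libraries of the other 93 deletion strains, with the strain as a random block and the plate as a term. It tested 5481 transcripts and called 111 (2.03%), 37 higher (0.675%) and 74 lower (1.35%), of which 44 (0.803%) passed the adjusted p (limma, Benjamini-Hochberg), 11 higher (0.201%) and 33 lower (0.602%), and 588 had an unadjusted p below 0.05. SPCC965.14c had by far the smallest p: the other strains had mean levels of 21.5 to 175 CPM (median 63.9), all above the 15.3 CPM of tfg3Δ (log2 fold change -2.23, limma adjusted p = 6.73e-12). Likewise tfg3Δ had the lowest mean of the 94 strains for pgt1 (log2 fold change -1.06, limma adjusted p = 0.0028), gpi7 (-0.80, 0.00112) and SPAC1B3.06c (-1.22, 0.0006). gdt1 was lower than in the other strains as well (log2 fold change -1.95, limma adjusted p = 0.00676), but 4 strains had still lower means, down to 4.25 CPM. Spread between strains was larger for the mating genes: the other strains had mean levels of 7.38 to 115 CPM (median 12.2) for spk1 and 0.8 to 28.2 CPM (median 2.84) for mei2. Of these genes spk1 passed the adjusted p (log2 fold change 2.32, limma adjusted p = 0.0006), and map1 (1.48, 0.11), ste4 (1.107, 0.244), mei2 (2.05, 0.0994) and map2 (1.73, 0.217) did not. By mean level of spk1, tfg3Δ ranked 91 of the 94 strains, so it was not the highest. The fit used the same within-strain correlation (0.27) for every transcript. For transcripts that vary more between strains, such as spk1 and gdt1, its p may be too small. The non-coding omt3 was not called here either (log2 fold change 2.24, limma adjusted p = 0.197), and its mean reached 189 CPM in another strain. For SPBC1773.12 (log2 fold change 1.72, limma adjusted p = 0.00393), SPNCRNA.1237 (1.35, 0.00688) and SPAC23H4.05c (1.72, 0.0531) tfg3Δ had the highest mean of the 94 strains. Of the 32 transcripts named for their small p against wild type, 21 were called here. Those not called included gst2 (log2 fold change 0.90, limma adjusted p = 0.588), for which tfg3Δ ranked 77 of 94. Also not called were meu10 (0.74, 0.478), aes1 (-1.04, 0.592) and SPBC8E4.04 (-0.74, 0.191).

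The filter on low values left 1798 transcripts untested. Of these, 15 reached the floor in all 4 tfg3Δ libraries and in at most 2 of the 8 wild-type libraries, and 4 in no tfg3Δ library and in at least 6 wild-type libraries. Apart from str3, they stayed below 6 CPM in tfg3Δ, and one was meu32 (2.43 CPM at most), a gene known from meiosis.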

How the data were processed

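RNA of 384 libraries was measured by single-end 3′ mRNA-seq. Reads had been aligned and counted by the authors (STAR 2.6.1b, Subread 1.6.2; genome ASM294v2), and the deposited CPM values are counts scaled to a common library size. Of the deposited values 78.8% had lost their decimal point; it was restored from the whole reads that CPM must represent. Of the values in the 12 main libraries, 7.87% allowed several positions and 21 remained uncertain, and 0.0387% were placed wrongly in simulated tables. Values under 1.01 CPM, the cutoff of the study, were removed, and transcripts with 3 of 4 and 6 of 8 values were fitted on log2 CPM without a pseudocount or imputation (limma 3.58.1, R 4.3.3, Benjamini-Hochberg over all transcripts). On simulated data this recovered 69.1%, 90.7% and 99.1% of genes changed by 0.8, 1.2 and 2 log2 units, with a median of 23 false calls among 5370 transcripts tested. The simulated libraries had independent noise of the wild-type spread and no plate effect, so these shares may not hold for the real libraries.

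tfg3Δ libraries correlated with wild-type libraries of their own replicate number at 0.154 to 0.294 and with others at -0.271 to 0.102 (5134 transcripts, deviations from group means), so the number was taken to mark the plate. The 2 wild-type libraries of well A2 that share number 2 were left out of fits with that block. Of 7259 genes 6846 matched the RefSeq annotation (ASM294v3), which gave products, types and sequences.

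Named genes were tfg3, its 10 nearest genes, the 12 protein-coding and 4 other transcripts with the smallest p in each direction among those at adjusted p below 0.05 without overlap, and list members called (up to 4 per list with values, and further members chosen after their values were seen). Members and lists were chosen with earlier results of these data known, and the motif TTCTTTGTT and the oxidative phosphorylation and ergosterol lists after the values were seen. Intervals and floors in reads cover counting error only.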

Additional observations from a re-analysis of the deposited data

Results flagged for a closer look

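In 8 of 150 groups of 4 or 8 libraries, 1 library stood far from the rest of its group by Dixon's criterion, which chance exceeds in about 1 in 20 groups. Of the tfg3Δ libraries, replicate 3 had 18.99 CPM of SPAC1B3.06c, where the next highest had 12.4 CPM. In wild type, replicate 3 of well A1 was high for prl51 (3.109 CPM, next 1.84) and for rad2-antisense-1 (13.1 CPM, next 7.06). Replicate 2 of well A2 with the label wt2 was high for mug35 (35.8 CPM, next 22.5) and low for gpi7 (57.7 CPM, next 70.3). The same library had 165 CPM of gpx1, where the next had 114. Replicate 3 of well A1 had no read of gst1 (0 CPM, next 1.92). For mfm1, replicate 3 of well A2 had 8.33 CPM and the next 4.78.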

How the results depend on the processing

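The 264 transcripts called against wild type became 157 with the wild-type libraries of well A2 only (32 at the adjusted p), 174 with protein-coding genes only, and 212 to 271 when 1 library was left out. Against well A1 only there were 213 (51 at the adjusted p). The call at an adjusted p below 0.05 left 16 of 131 against arp5Δ and 44 of 111 against the other strains. Leaving out 1 library gave 91 to 139 against arp5Δ and 98 to 108 against the other strains, and for the tfg3 level 0.21 to 0.35 log2 units, where the exact permutation p passed the threshold no longer (0.28 log2 units without wild-type replicate 4 of well A1) without tfg3Δ replicate 1, tfg3Δ replicate 2 or wild-type replicate 4 of well A1. The replicate block gave 328 calls (299 at the adjusted p) against 245 (154) without it in the same libraries, and ended the calls of isp3, gst1, mfm1, pfl7, mik1 and the subtelomeric SPAC186.06 among the named genes. No named gene called against wild type changed direction under any alternative run, and of their comparisons 724 kept the call and 75 lost it, 19 of them with well A2 only. Levels under about 2 CPM rest on 3 reads or fewer.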

Other observations

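Around SPCC965.14c on chromosome III, the 12 genes named SPCC965 were inspected after their values had been seen, as a description only. In tfg3Δ 3 of the 12 were lower and 1, gst2, was higher, beside 2.33% and 2.51% of all transcripts tested. The amino acid permease gene agp3 had 5.64 ± 0.667 CPM in tfg3Δ against 10.059 ± 2.23 CPM in wild type (SD, n = 4 and 8; log2 fold change -0.81, limma adjusted p = 0.0208), and SPCC965.13 had 81.3 ± 6.12 CPM against 127.9 ± 24.6 CPM (log2 fold change -0.63, limma adjusted p = 0.0354). Within agp3 lies dpe2, at 2.29 ± 0.608 CPM against 4.56 ± 1.92 CPM, which was not called (log2 fold change -0.88, limma adjusted p = 0.189). The other genes, from vma8 to SPCC965.10, had log2 fold changes of -0.30 to 0.66, gst2 apart.

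Some of the 44 transcripts that passed the adjusted p against the other deletion strains belonged to none of the gene lists. The AAA-ATPase histone chaperone gene abo1 (57.4 ± 4.55 CPM, log2 fold change 0.75, limma adjusted p = 0.00778) and sgf11, of the SAGA deubiquitylation module (47.3 ± 2.69 CPM, 0.72, 0.0432), were higher, and the multidrug transporter gene pmd1 (27.3 ± 5.50 CPM, -0.86, 0.0154) and mdm31 (59.1 ± 13.2 CPM, -0.66, 0.00159), which encodes a mitochondrial inner membrane protein, were lower. The spliceosomal RNA snu2, named after its values were seen, was higher in tfg3Δ than in wild type (34.7 against 10.9 CPM on average, log2 fold change 1.70, limma adjusted p = 0.00409).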
